A study of Homo sapiens with 7 samples.

Results

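miR-103a-3p and miR-107 are near-identical microRNAs (miRNAs) encoded in introns of the pantothenate kinase (PANK) genes, and they were followed in small extracellular vesicles (sEVs) of hepatocellular carcinoma cells. They were chosen by name (hsa-miR-103a-3p and hsa-miR-107, for the human miRNAs) and are 2 of the 2656 mature miRNAs in the table of counts. The sEVs were collected from HepG2, a human liver cancer cell line, after 72 h of culture in medium with vesicle-depleted serum. The cells carried a lentiviral, doxycycline-inducible short hairpin RNA, either a scrambled negative control (shCTR, 3 libraries) or one against the RNA-binding protein SYNCRIP (shSYNCRIP, 4 libraries), and had been selected with puromycin. Each library is labelled a biological replicate. The methods list 1 hairpin sequence against SYNCRIP, so effects of the hairpin on other transcripts cannot be told apart from those of losing SYNCRIP. Counts of miRNAs hold no measure of SYNCRIP itself, so its silencing was not checked here. A cell line field of the labels counts upward with the sample, whereas every title names HepG2. SYNCRIP has been described as a loader of miRNAs that carry the hEXO motif into sEVs, and the question here is whether the abundance of the PANK-intron miRNAs in sEVs differed once SYNCRIP was silenced.

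A mature miRNA guides an Argonaute protein to messenger RNAs, mainly by pairing of its seed, bases 2 to 8 from the 5′ end. PANK enzymes phosphorylate pantothenate, the first step of coenzyme A synthesis, and their genes carry the hairpins of miR-103 and miR-107 in introns. In liver and fat, miR-103 and miR-107 are known for restraining insulin sensitivity, with caveolin-1 among their targets, and in breast cancer cells they are known to repress Dicer and to favour epithelial-to-mesenchymal transition. None of these targets was measured in the vesicle libraries.

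The mature sequences are shown because both miRNAs must be told apart by a single base. In capitals are the seed and the base at which they differ (RefSeq, GRCh38.p14), both being 23 nucleotides long.
miR-103a-3p: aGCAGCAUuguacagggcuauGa
miR-107: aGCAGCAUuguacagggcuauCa
The difference is G22C, counted from the 5′ end with miR-103a-3p as the first base, and it lies next to the last base, outside the seed. Both seeds pair with the same heptamer, AUGCUGC, and no other of the 2370 mature human miRNAs in the sequence table has this seed.

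The hairpins are shown to place the mature arm, which is in capitals, in its precursor.
MIR103A1: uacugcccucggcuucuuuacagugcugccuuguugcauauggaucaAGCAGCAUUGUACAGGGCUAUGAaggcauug
MIR103A2: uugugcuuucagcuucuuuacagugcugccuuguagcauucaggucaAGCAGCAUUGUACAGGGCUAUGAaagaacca
MIR107: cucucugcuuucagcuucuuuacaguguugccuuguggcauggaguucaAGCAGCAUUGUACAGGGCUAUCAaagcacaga
miR-103a-3p is made from both MIR103A hairpins, so its counts cannot be assigned to either locus. Its copies lie at chr5:168560904-168560926 on the minus strand, in intron 5 of PANK3, and at chr20:3917541-3917563 on the plus strand, in intron 5 of PANK2. miR-107 lies at chr10:89592756-89592778 on the minus strand, in intron 5 of PANK1. Introns are numbered in a GENCODE release 29 transcript with 7 exons for each gene. Each hairpin is on the strand of its host gene, and no mature arm overlaps an annotated exon of the host.

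Library totals ran from 106376 to 388226 counts in shCTR and from 29863 to 240984 in shSYNCRIP, and 100 to 275 miRNAs were detected per library. shSYNCRIP replicate 2 was the shallowest library, and shSYNCRIP replicate 4 had the fewest miRNAs detected. Of 7 hepatocyte and HepG2 miRNAs, miR-122-5p was present in every library with 313 to 1664 counts and miR-483-3p with 152 to 4906, whereas miR-885-5p was at 0 in every library and miR-192-5p had at most 1 count. The 7 took 1.83% to 3.29% of the counts in shCTR and 1.64% to 4.38% in shSYNCRIP. A list of 8 blood-cell miRNAs took 10.9% to 19.9% in shCTR and 8.85% to 14.0% in shSYNCRIP, with miR-486-5p present in every library and miR-144-3p seen in 1. The part of these lists in the results below was not tested.

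miR-103a-3p was among the most abundant miRNAs of these sEVs. It had 3659, 7884 and 27101 counts in shCTR replicates 1, 2 and 3, and 9523, 497, 10797 and 1613 counts in shSYNCRIP replicates 1, 2, 3 and 4. It ranked 4th to 6th by count in the shCTR libraries, 4th in shSYNCRIP replicates 1 and 3, 11th in replicate 2 and 17th in replicate 4. As a share of all counts this was 3.44%, 5.37% and 6.98% in shCTR and 6.32%, 1.66%, 4.48% and 1.40% in shSYNCRIP. shSYNCRIP replicates 1 and 3 thus lay within the range of the shCTR libraries, whereas replicates 2 and 4 lay below all of it. The narrowest margin between neighbours in this order was at the bottom, with 95% Wilson intervals of 1.53% to 1.82% in replicate 2 and 1.34% to 1.47% in replicate 4. The spread of miR-103a-3p between libraries was therefore larger than counting error, which is all that such an interval covers, since amplified reads are not independent molecules.

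After scaling by the trimmed mean of M values (TMM), a method that corrects for library composition, miR-103a-3p averaged 53613 ± 17480 (SD, n = 3) in the shCTR libraries and 35803 ± 22270 (SD, n = 4) in the shSYNCRIP libraries, in CPM (counts scaled to a common library total). In shCTR the values were 35540, 54867 and 70433 CPM, and in shSYNCRIP they were 57727, 17091, 52251 and 16142 CPM. The groups overlapped, and the difference of the means was slightly larger than the SD of shCTR and smaller than that of shSYNCRIP. limma-voom was chosen as the main test because the methods describe it. Its fold change was -0.54 on the log2 scale (standard error 0.42, 95% interval -1.39 to 0.31, nominal p 0.207, adjusted p 0.763). The interval holds 0 and also differences below -1.

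**Figure D1:**
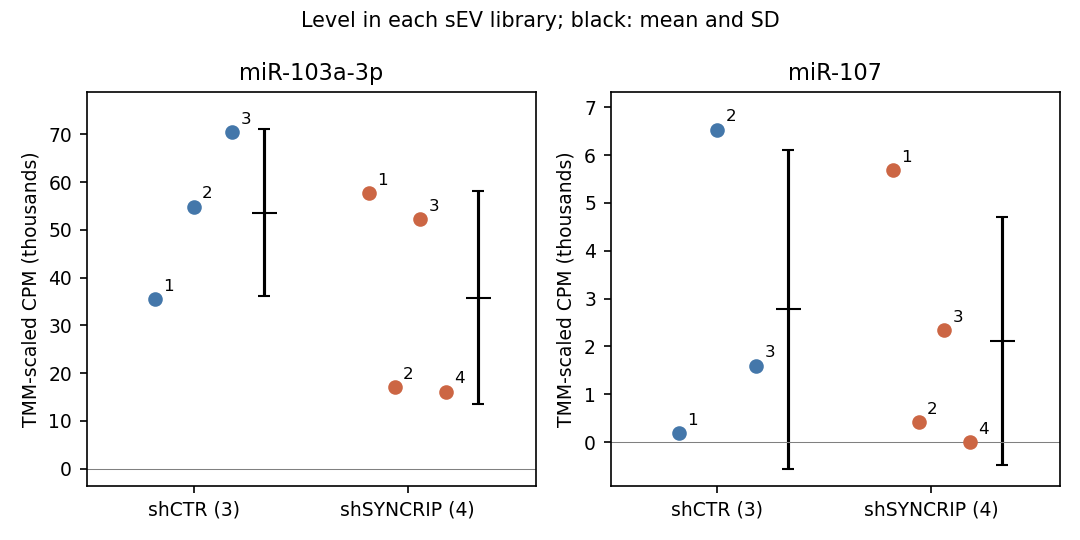
TMM-scaled CPM (axis in units of 1000 CPM) of miR-103a-3p (left) and miR-107 (right) in each sEV library, on linear axes that differ between the panels; points are libraries numbered by replicate, and the black marks are the mean and SD of each group. For miR-103a-3p, shSYNCRIP replicates 2 and 4 (17091 and 16142 CPM) sit below every shCTR library, and for miR-107 shSYNCRIP replicate 4 alone (0 CPM) does, the other 3 lying within the shCTR range.

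miR-107 was far rarer and less even. It had 20, 939 and 615 counts in shCTR replicates 1, 2 and 3, and 937, 12, 484 and 0 counts in shSYNCRIP replicates 1, 2, 3 and 4. Each library thus held either 484 counts or more or 20 counts or fewer, and both kinds of library occurred in both groups. The highest shares were 0.639% in shCTR replicate 2 and 0.621% in shSYNCRIP replicate 1, whose Wilson intervals overlap (0.600% to 0.681% and 0.583% to 0.662%). shSYNCRIP replicate 3 (0.201%) and shCTR replicate 3 (0.158%) followed with intervals that do not overlap (0.184% to 0.220% and 0.146% to 0.171%). At the bottom, shSYNCRIP replicate 2 (0.0402%) and shCTR replicate 1 (0.0188%) had overlapping intervals again (0.0230% to 0.0702% and 0.0122% to 0.0290%). In shSYNCRIP replicate 4 a share under 0.00261% could have gone unseen, the limit set by its depth at a count of 0.

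After scaling, miR-107 averaged 2776 ± 3330 CPM (SD, n = 3) in the shCTR libraries and 2109 ± 2590 CPM (SD, n = 4) in the shSYNCRIP libraries. The shCTR libraries had 194, 6535 and 1598 CPM, and the shSYNCRIP libraries had 5680, 413, 2342 and 0 CPM. In both groups the SD was larger than the mean. The log2 fold change in limma-voom was -1.78 (standard error 2.30, 95% interval -6.38 to 2.82, nominal p 0.442, adjusted p 0.992). Its size rests on the library at 0, whose value on a log scale is set by the small count added before taking logs. Without shSYNCRIP replicate 4 it was 0.29 (nominal p 0.864, adjusted p 0.992), with the opposite sign. A fall of miR-107 could thus not be told from a rise at this depth and spread.

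In the main fit, neither of the 2 miRNAs met the criteria that the study applied, a cutoff of 0.5 on the fold change together with a nominal p under 0.1. The methods do not name the filter on low counts, so the filter was a choice made here. The paper treats miR-103a-3p as sorted by SYNCRIP, and its mimic and pull-down experiments on this miRNA were not analysed here. By RT-qPCR it also reports several miRNAs with the hEXO motif as reduced in sEVs of SYNCRIP-silenced cells. Those data, and its CLIP of SYNCRIP, were not analysed here either. The cutoff was taken here on the log2 scale, since its scale is not spelled out in the methods. Of the 117 miRNAs that passed the filter on low counts, 17.9% met the criteria in either direction, 12.8% lower and 5.13% higher in shSYNCRIP. The groups did not overlap for some miRNAs, with shSYNCRIP entirely below shCTR for 4.27% of those tested and entirely above it for 2.56%, and neither miR-103a-3p nor miR-107 was among them. An adjusted p under 0.05 in limma-voom was likewise reached by 2.56%, and by neither of the pair. The quasi-likelihood test of edgeR gave log2 fold changes of -0.58 for miR-103a-3p (nominal p 0.292) and -0.39 for miR-107 (nominal p 0.851), each with an adjusted p of 0.983. DESeq2 gave -0.76 and -0.48, with adjusted p values of 0.983 and 0.984.

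For miR-103a-3p, whether the criteria were met changed when libraries were left out of the fit. The filter and the scaling were also run again each time, with 98 to 139 miRNAs tested in place of 117. What the missing library and the new filter each contributed was not tested. When each of the 7 libraries was left out in turn, 5 of the 7 fits met the criteria. Of all miRNAs tested in these fits, 11 to 19 met the criteria as lower and 2 to 6 as higher. Without shCTR replicate 1 the log2 fold change was -0.81 (nominal p 0.0245) and without shCTR replicate 2 it was -0.94 (nominal p 0.0217). Without shSYNCRIP replicate 1, 2 or 3 it was -1.04, -0.75 or -1.03, at nominal p values of 0.0648, 0.0949 and 0.0610, respectively. Without shCTR replicate 3, the deepest library, it was -0.23 (nominal p 0.632), and without shSYNCRIP replicate 4 it was -0.59 (nominal p 0.186). The adjusted p stayed between 0.301 and 0.971 in these fits, and the estimate was below 0 in all 7.

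The filter on low counts mattered as well. Without a filter, 406 miRNAs were tested and miR-103a-3p met the criteria at a log2 fold change of -1.05 (nominal p 0.0300, adjusted p 0.414). Of the 406, 22 met the criteria as lower and 65 as higher. In that fit the median of all miRNAs was shifted by 0.57 to 0.50, so that relative to the median miR-103a-3p was at -1.56, against -0.47 with the filter. When 10 or more counts were asked of each library, 36 miRNAs were tested and the value of miR-103a-3p was -0.86 (nominal p 0.0951, adjusted p 0.861). Of the 36, 2 met the criteria as lower and 1 as higher. miR-107 met the criteria under none of the filters, tests or left-out libraries that gave it a value.

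**Figure D2:**
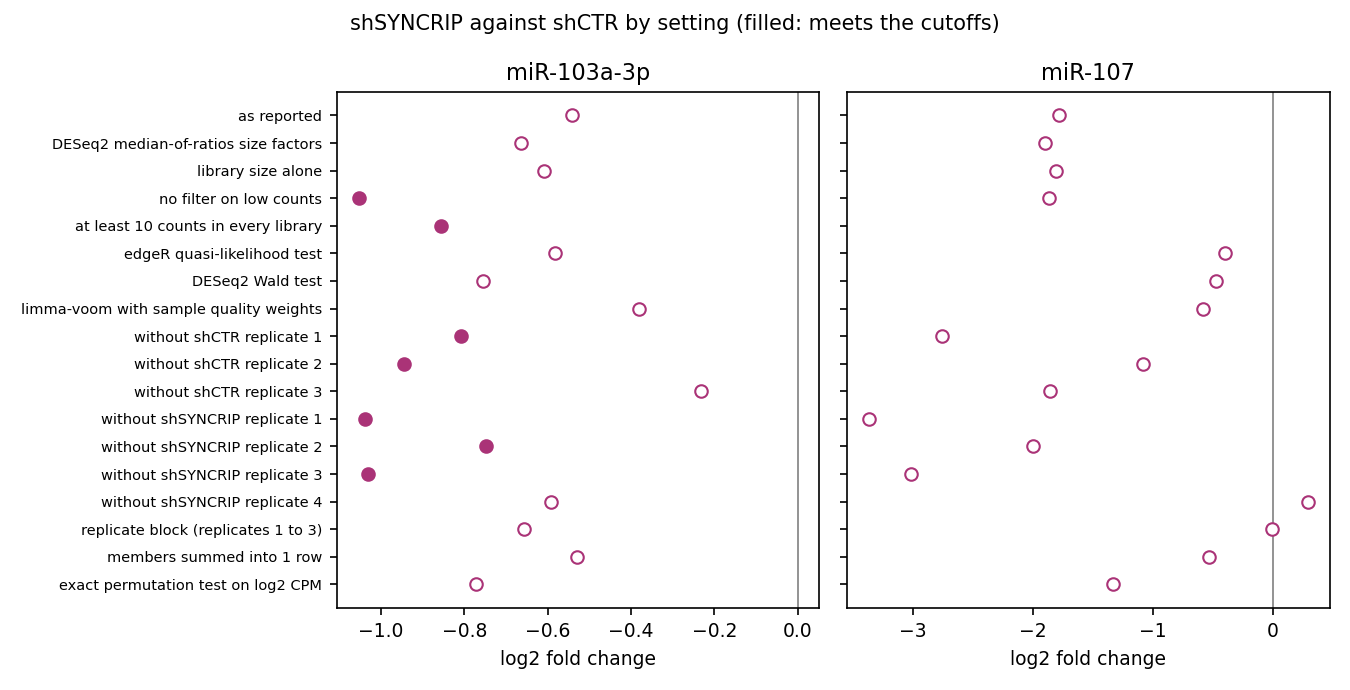
Log2 fold change of miR-103a-3p (left) and miR-107 (right) in shSYNCRIP against shCTR under each setting of the fit, on axes of different range, with filled circles where the cutoffs were met (a nominal p under 0.1 and a log2 fold change beyond 0.5, or p under 0.05 in the permutation test). miR-103a-3p stays below 0 throughout and is filled in 7 settings, whereas miR-107 runs from -3.37 to 0.29 and is never filled. The setting with the members summed shows the same value in both panels.

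Because reads of the pair differ by 1 base, and how reads that fit both were counted is not given in the sources used here, their counts were also added. Any read counted in both rows enters this sum more than once. The rows of miR-199a-3p and miR-199b-3p, which have the same mature sequence, had the same values (log2 fold change -0.26 and mean log2 CPM 12.94 for each). Those rows do not show how reads of a pair that differs by 1 base were counted. Whether reads of the PANK pair were counted in both rows was not tested. The sum of miR-103a-3p and miR-107 took 3.46%, 6.01% and 7.14% of the counts in shCTR and 6.94%, 1.70%, 4.68% and 1.40% in shSYNCRIP. On the log2 CPM scale it averaged 15.72 ± 0.53 (SD, n = 3) in shCTR and 14.94 ± 1.05 (SD, n = 4) in shSYNCRIP. The difference of -0.78 was larger than the SD of shCTR and smaller than that of shSYNCRIP. The two-sided exact permutation test over 35 splits gave p = 0.314, where 0.0286 is the smallest possible (adjusted over 4 such tests 0.629). The other tests of this family were the ratio of both miRNAs, given below, and each of them alone, with differences of -0.77 for miR-103a-3p (exact permutation p = 0.314) and -1.33 for miR-107 (exact permutation p = 0.657). Entered as 1 row in limma-voom, the sum gave -0.53 (standard error 0.43, nominal p 0.220, adjusted p 0.753), close to miR-103a-3p alone.

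The balance within the pair varied more between replicates than between the groups. miR-107 made up 0.544%, 10.6% and 2.22% of the counts of the pair in shCTR and 8.96%, 2.36%, 4.29% and 0% in shSYNCRIP. The highest and the lowest nonzero shares were both found in shCTR, and their Wilson intervals, 10.02% to 11.3% in replicate 2 and 0.352% to 0.838% in replicate 1, lie far apart. miR-103a-3p had between 8.40 and 183 counts for each count of miR-107 where both were present, so the rows were not identical. Unequal counts cannot show whether reads in the miR-107 row were also counted for miR-103a-3p. The 20 counts of miR-107 in shCTR replicate 1 amount to 0.547% of those of miR-103a-3p, and whether such low counts are reads of miR-107 was not tested. The log2 ratio of miR-103a-3p to miR-107, which does not depend on the scaling of the libraries, was 5.30 ± 2.16 (SD, n = 3) in shCTR and 5.66 ± 2.77 (SD, n = 4) in shSYNCRIP. In shSYNCRIP replicate 4, with 0 counts of miR-107, the ratio of 9.66 depends on the 2 counts added to each miRNA before division. The difference of 0.36 was smaller than either SD (two-sided exact permutation test, p = 0.914, adjusted over the 4 tests 0.914). It turned to -0.76 without shCTR replicate 2 and to -0.98 without shSYNCRIP replicate 4.

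**Figure D3:**
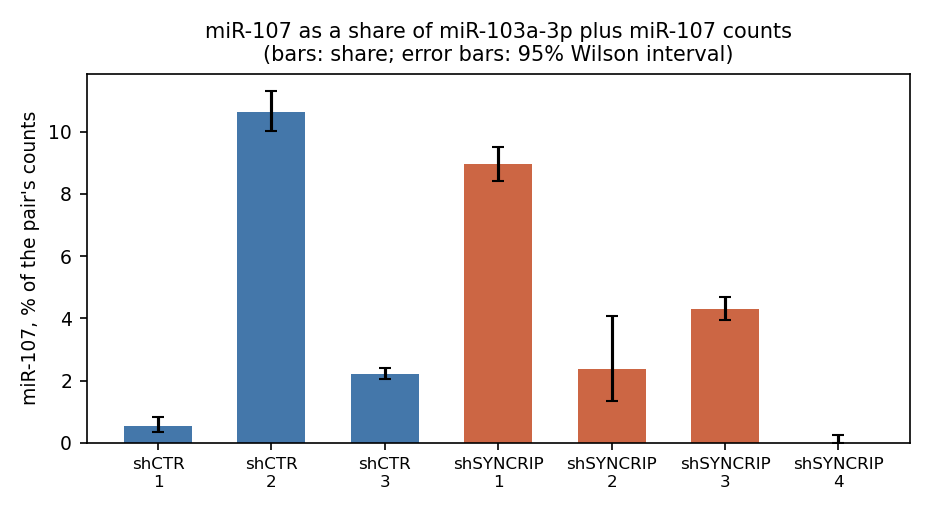
Share of miR-107 in the summed counts of miR-103a-3p and miR-107 for each library, in percent, with 95% Wilson intervals as error bars (counting error only). The share runs from 0.544% to 10.6% within shCTR and from 0% to 8.96% within shSYNCRIP, without a separation of the groups.

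The opposite arms of the hairpins were not detected. miR-103a-1-5p and miR-103a-2-5p had 0 counts in all 7 libraries, as had miR-103b, which is read from the other DNA strand of both MIR103A loci and pairs with miR-103a-3p along all of its 23 bases. Any share under 0.000773% in the deepest library, or under 0.0100% in the shallowest, could have gone unseen. No row was listed for an opposite arm of miR-107. For the MIR103A hairpins, within these limits, counts in sEVs were seen for the 3′ arm alone.

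Both miRNAs carry the hEXO motif in the same place. The motif is 3 bases other than C, then a base other than U, then A or U, then G or C, and it was searched on the given strand after the first 7 bases. Its 1 match in each miRNA is GUACAG, at bases 10 to 15, away from base 22 at which they differ. In the pull-down oligonucleotide of the study, the m6A mark was placed on the first A of this match, a base that miR-107 shares. The motif is common: 63.6% of the 2370 mature human miRNAs in the sequence table have it, and 65 of the 105 tested miRNAs with a sequence there do (61.9%). The 65 had a median log2 fold change of 0.06 with 11 lower and 5 higher by the study's criteria, and the other 40 a median of -0.21 with 1 lower and 1 higher. Tested miRNAs without a sequence there are in neither set, among them miR-130a-3p, miR-451a and miR-483-5p, which met the criteria as lower. The match is a description of the letters and does not show that SYNCRIP binds there.

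miR-103a-3p and miR-107 belong to the miR-15/miR-107 group, miRNAs that share AGCAGC at or next to the 5′ end. The start is shown for 4 of them, with AGCAGC in capitals.
miR-103a-3p: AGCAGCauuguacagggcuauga
miR-107: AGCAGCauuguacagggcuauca
miR-16-5p: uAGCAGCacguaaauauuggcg
miR-15b-5p: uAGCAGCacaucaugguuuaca
In the PANK pair AGCAGC begins at base 1, and in miR-16-5p and miR-15b-5p at base 2, so the seeds are shifted against each other by 1 base, GCAGCAU against AGCAGCA.

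Of the 11 listed members of the miR-15/miR-107 group, 6 passed the filter. miR-503-5p, miR-646 and miR-6838-5p had 0 counts in every library, miR-195-5p had at most 27 counts and miR-424-5p at most 9. Of the 6 tested, which include the PANK pair, 0 met the study's criteria, against 17.9% of all miRNAs tested. In limma-voom 5 of the 6 had an estimate below 0, against 61 of all 117. The median log2 fold change of the 6 was -0.78, against -0.07 over all miRNAs tested. Whether the group differed from the other miRNAs was not tested. miR-16-5p, known for repressing cell cycle and survival genes, was the most abundant, with 8045, 12975 and 34485 counts in shCTR and 13932, 2385, 22765 and 4842 in shSYNCRIP. Its log2 fold change was -0.07 with the narrowest interval of the 6, -0.68 to 0.55 (adjusted p 0.992). It ranked 2nd by mean level, and its SD on the log2 CPM scale was 0.12 in shCTR and 0.50 in shSYNCRIP, where miR-103a-3p had 0.50 and 1.00.

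miR-15b-5p, from the cluster of miR-16-2, had 529, 731 and 3053 counts in shCTR and 215, 247, 1438 and 0 in shSYNCRIP. Its log2 fold change was -2.89 (95% interval -6.59 to 0.80, adjusted p 0.625) in limma-voom, the lowest estimate of the group in that test. The quasi-likelihood test gave -0.53 and DESeq2 -0.64, and in both of these tests miR-497-5p had the lowest estimate (-2.66 and -2.53). In limma-voom miR-15b-5p met the criteria in the fits without shSYNCRIP replicate 2 (-4.43, nominal p 0.0576) and without shSYNCRIP replicate 3 (-4.02, nominal p 0.0600), and without a filter (-3.35, nominal p 0.0311). Of all miRNAs tested in these fits, 12 of 105, 19 of 104 and 22 of 406 met the criteria as lower, respectively. miR-15a-5p had 2, 464 and 419 counts in shCTR and 302, 253, 1116 and 0 in shSYNCRIP, with an estimate of 0.87 (95% interval -4.52 to 6.27, adjusted p 0.992). miR-497-5p had 240 counts in shCTR replicate 2 and at most 24 in every other library, with an estimate of -1.02 (adjusted p 0.992). shSYNCRIP replicate 4 held 0 counts of every group member except miR-16-5p and miR-103a-3p. As a whole the group took 11.5% to 16.9% of the counts in shCTR and 5.61% to 16.6% in shSYNCRIP.

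**Figure D4:**
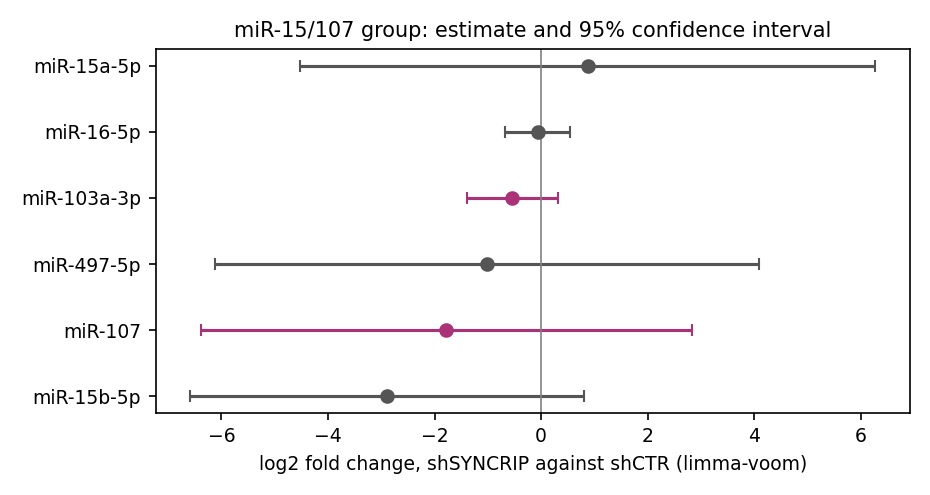
Log2 fold change of the 6 tested miR-15/miR-107 group members in shSYNCRIP against shCTR (points, limma-voom) with 95% confidence intervals (bars), miR-103a-3p and miR-107 in purple and the others in grey. Every interval includes 0, and those of miR-16-5p and miR-103a-3p are the narrowest.

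By mean log2 CPM over the 7 libraries, miR-103a-3p (15.21, SD 0.87) ranked 7th of the 117 tested. Its neighbours were miR-23a-3p above (15.24, SD 0.51) and let-7g-5p below (14.84, SD 0.33), and it differed from neither beyond its SD. Both neighbours had smaller SDs: in shSYNCRIP replicate 4, where miR-103a-3p had 1613 counts, miR-23a-3p had 8470 and let-7g-5p had 3488. miR-107 (9.58, SD 3.20) ranked 62nd, between miR-200c-3p (9.71, SD 2.90) and miR-15a-5p (9.53, SD 3.72), and differed from neither beyond its SD.

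The miRNAs whose log2 CPM followed miR-103a-3p most closely over the 7 libraries were miR-106b-5p, of the miR-17 family (Pearson r 0.96), miR-451a, a miRNA of red blood cells (r 0.95), and miR-142-5p, a miRNA of blood cells (r 0.92). All 3 had at most 1 count in shSYNCRIP replicates 2 and 4, the libraries with the least miR-103a-3p. For miR-107 they were miR-98-5p, of the let-7 family (r 0.94), miR-126-3p, known from endothelial cells (r 0.93), and miR-194-5p, known from liver and gut (r 0.92). Each of these had its 3 lowest counts in the same libraries as miR-107, shCTR replicate 1 and shSYNCRIP replicates 2 and 4, with at most 18 counts there. The pair itself had r = 0.82, which placed miR-107 9th of 116 in likeness to miR-103a-3p and miR-103a-3p 13th of 116 in likeness to miR-107. These values describe 7 points that share libraries, scaling and depth, and were not tested.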

How the data were processed

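Small RNA of sEVs was sequenced in 3 shCTR and 4 shSYNCRIP libraries. The authors trimmed adapters with FastqToolkit, filtered short and low-quality reads with Cutadapt, kept forward reads and counted them against miRBase with MiRDeep2, and they deposited raw counts per mature miRNA without normalization. Columns were matched to samples by group and replicate number in the titles. The members and lists were chosen with earlier results of these data known.

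The software was limma 3.58.1, edgeR 4.0.16 and DESeq2 1.42.0 in R 4.3.3. filterByExpr kept 117 of 2656 miRNAs, TMM scaled them, and limma-voom compared the groups over all of them with Benjamini-Hochberg adjustment. log2 CPM used a prior count of 2. Single values were compared by two-sided exact permutation of the libraries, with the absolute difference of means. Shares have 95% Wilson intervals, and a count of 0 was taken to allow 3 counts. The code of the fits was run on simulated data, as a check of the code and not of the power in these libraries. Named miRNAs were the pair, its opposite arms, the miR-15/miR-107 group, the 3 most correlated miRNAs and the neighbours in mean level of each. Sequences were matched by name in RefSeq (2367 rows matched), and hairpin positions were identical in GENCODE release 29 (GRCh38). Alternatives were other size factors, filters, tests, prior counts, a replicate block, the summed pair and each library left out. The estimate for miR-107 is imprecise, with an SD of its CPM larger than the mean in both groups, in libraries of 29863 to 388226 counts. What depth contributed to this was not tested. RT-qPCR, CLIP and pull-down data were not analysed here.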

Additional observations from a re-analysis of the deposited data

How the results depend on the processing

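The exact permutation test of each miRNA alone was chosen after seeing the data. miR-103a-3p had an estimate below 0 in all 17 alternatives, and it met the criteria without a filter (-1.05), with 10 or more counts asked of each library (-0.86, the stricter filter) and in 5 of the 7 fits that left out a library, which ranged from -1.04 to -0.23. The cause was not tested. miR-107 ranged from -3.37 to 0.29 when a library was left out, was below 0 in the other 9 of its alternatives and met the criteria in none. Those 9 include the summed pair (-0.53), whose counts are mostly of miR-103a-3p, and the replicate block (-0.0081). miR-107 has no value with the stricter filter. DESeq2 size factors moved the median of all miRNAs by -0.20, and miR-103a-3p was then at -0.40 relative to it. The summed pair ranged from -1.12 to -0.46 with a library left out. The log2 ratio ranged from -0.98 to 1.40 there, and was 0.86 and 0.02 with prior counts of 0.5 and 5.

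The number of lower miRNAs changed from 15 to 2 with the stricter filter, 3 in the quasi-likelihood test and 4 in DESeq2, and ranged from 11 to 19 with a library left out. The number of higher ones changed from 6 to 65 without a filter and 1 with the stricter filter, and ranged from 2 to 6 with a library left out. Of the 8 miR-15/miR-107 group members tested without a filter, 2 met the criteria, against 22 lower and 65 higher of all 406 miRNAs. With the stricter filter 1 of 2 did, against 2 lower and 1 higher of all 36. With a library left out, 0 to 2 of the 5 or 6 tested did, where 98 to 139 miRNAs were tested in all. At an adjusted p under 0.05, limma-voom called 3 miRNAs and edgeR 0 (2 at an unadjusted p under 0.05).

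Same-numbered libraries did not deviate together (correlations of -0.064, -0.033 and 0.088, and 1 of 3 shCTR libraries correlated best with its own number). The titles do not say whether such libraries were prepared together, and so few correlations cannot settle it. The main fits used no pairing. With a replicate block over replicates 1 to 3, miR-103a-3p was at -0.66, miR-107 at -0.0081, the summed pair at -0.46 and the log2 ratio at -0.98, and 11 lower and 4 higher miRNAs met the criteria; shSYNCRIP replicate 4 is not in this fit.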

Other observations

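Other miRNAs of equal length that differ by 1 base were compared in the same way, a choice made after seeing the data, in the libraries where the more abundant one had at least 1000 counts. For miR-103a-3p and miR-107 the rarer one amounted to 0% to 11.9% of the other (median 3.38% over 6 libraries). In shCTR replicate 1, where miR-107 had 20 counts, this was 0.547%. miR-106a-5p and miR-17-5p, which differ at base 1, also varied between libraries: miR-106a-5p amounted to 21.5% of miR-17-5p in shCTR replicate 1 and in shSYNCRIP replicate 1, and to 0.489% to 0.616% in the other 4 libraries, with 8 to 29 counts. miR-18b-5p and miR-18a-5p, which differ at base 20, came lower still, with 0 and 1 counts of miR-18b-5p in the 2 libraries that qualified (0% and 0.0818%). Among members of the let-7 family, let-7f-5p was at 43.0% to 80.4%, let-7c-5p at 5.80% to 26.8% and let-7e-5p at 0.968% to 9.80% of let-7a-5p, and let-7b-5p was at 36.2% to 56.7% of let-7c-5p. miR-100-5p was at 28.0% to 41.4% of miR-99a-5p. For miR-27a-3p and miR-27b-3p, either of which could be the more abundant, the rarer one was at 57.2% to 99.9% of the other. Whether the low counts of miR-107 are its own reads or reads of miR-103a-3p with an error at base 22 was not tested.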
